A study of Homo sapiens with 2 samples.

Results

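Dense OTX2 peak clusters are stretches of the genome where many OTX2 binding peaks lie close together. Their members were chosen by the measured peak positions alone: peaks on chromosomes 1 to 22 were sorted by start and joined while the gap from the end of one to the start of the next was at most 5 kb, and a cluster with 6 or more peaks was called dense. Of 133985 peaks on these chromosomes, 9403 (7.02%) lay in 1246 dense clusters. The number of peaks, the span and, through them, the summed height follow from that rule, so they are described and not tested.

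The peaks came from D283, an established medulloblastoma cell line, grown untreated as OTX2-expressing tumorspheres in ultra-low attachment plates with a neural proliferation medium of DMEM/F12, N2, B27, EGF and bFGF. Chromatin immunoprecipitation sequencing (ChIP-Seq) with an antibody to OTX2 gave 1 library, and sheared chromatin without antibody gave 1 input library. After removal of duplicates the ChIP library had a depth of 61259377 fragments and the input 22521186. With 1 library of each kind there is no replicate error, and every interval below covers counting error only. All spheres are from a single line, and these libraries give no expression values, so the markers of the line were not checked.

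OTX2 is a homeodomain transcription factor that patterns the forebrain and midbrain, drives the photoreceptor programme of the retina together with its relative CRX, and is highly expressed in many medulloblastomas. Both factors favour the DNA letters TAATCC. Transcription factors often bind at several sites spread over the introns and flanks of a gene, and such groups of sites are a known feature of genes that set the identity of a cell.

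The promoters below show where a dense-cluster peak sits on a start site, which is the case for few of the peaks. CRX, GUCA1A, TBR1 and H3C15 were named by rule, because the tallest peak of their cluster lies within 1 kb of a protein-coding transcription start site (TSS). ID1 and RPL17 came under the same rule, with summits of 54 and 61 fragments in the window. Their 250 bases held neither TAATCC nor TAATCT on either strand and are not printed. KCNV2, RPGRIP1, EYS, MAB21L1, TMCC2, SLC1A7 and GABRR3 were chosen after their values were seen, as the protein-coding promoters with a motif and a dense-cluster summit of at least 20-fold enrichment, 1 for each peak. NBEA shares the summit of MAB21L1 and is not printed, nor are the non-coding LINC01356 and SLIT3-AS1, at 25.3-fold and 22.8-fold. Each line gives the 250 bases before the RefSeq start, 5′ to 3′ on the strand of the gene, and capitals mark TAATCC or TAATCT on either strand (GGATTA and AGATTA on the other).
CRX, GRCh38 chr19:47821687-47821936, plus strand: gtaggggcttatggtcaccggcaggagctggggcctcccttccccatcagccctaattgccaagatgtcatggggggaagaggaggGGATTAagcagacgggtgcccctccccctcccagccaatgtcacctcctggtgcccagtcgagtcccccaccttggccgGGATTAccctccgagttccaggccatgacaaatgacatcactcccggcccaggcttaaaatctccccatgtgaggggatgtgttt
GUCA1A, GRCh38 chr6:42173114-42173363, plus strand: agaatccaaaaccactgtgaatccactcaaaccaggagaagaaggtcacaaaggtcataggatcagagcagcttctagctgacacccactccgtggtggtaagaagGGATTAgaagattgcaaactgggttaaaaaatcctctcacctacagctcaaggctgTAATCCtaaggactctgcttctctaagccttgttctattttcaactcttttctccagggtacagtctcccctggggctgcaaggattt
KCNV2, GRCh38 chr9:2717260-2717509, plus strand: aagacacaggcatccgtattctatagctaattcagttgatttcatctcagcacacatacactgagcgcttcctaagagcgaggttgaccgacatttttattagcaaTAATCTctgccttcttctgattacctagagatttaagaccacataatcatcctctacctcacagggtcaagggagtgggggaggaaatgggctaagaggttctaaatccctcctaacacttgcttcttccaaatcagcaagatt
RPGRIP1, GRCh38 chr14:21279833-21280082, plus strand: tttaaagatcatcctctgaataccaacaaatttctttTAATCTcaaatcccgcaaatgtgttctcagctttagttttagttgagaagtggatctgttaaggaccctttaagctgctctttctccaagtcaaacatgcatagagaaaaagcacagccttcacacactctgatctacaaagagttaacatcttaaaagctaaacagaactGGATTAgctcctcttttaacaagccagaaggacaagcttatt
EYS, GRCh38 chr6:65707227-65707476, minus strand: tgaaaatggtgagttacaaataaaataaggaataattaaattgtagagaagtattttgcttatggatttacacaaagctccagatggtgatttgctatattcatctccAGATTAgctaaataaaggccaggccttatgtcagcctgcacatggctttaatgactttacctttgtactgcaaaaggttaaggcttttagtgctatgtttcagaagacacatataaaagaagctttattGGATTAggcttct
MAB21L1, GRCh38 chr13:35476690-35476939, minus strand: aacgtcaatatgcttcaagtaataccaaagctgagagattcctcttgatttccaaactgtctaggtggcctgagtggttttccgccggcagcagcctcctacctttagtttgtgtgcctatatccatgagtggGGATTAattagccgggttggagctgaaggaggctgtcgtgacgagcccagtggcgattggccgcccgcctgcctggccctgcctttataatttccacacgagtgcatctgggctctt
TMCC2, GRCh38 chr1:205256947-205257196, plus strand: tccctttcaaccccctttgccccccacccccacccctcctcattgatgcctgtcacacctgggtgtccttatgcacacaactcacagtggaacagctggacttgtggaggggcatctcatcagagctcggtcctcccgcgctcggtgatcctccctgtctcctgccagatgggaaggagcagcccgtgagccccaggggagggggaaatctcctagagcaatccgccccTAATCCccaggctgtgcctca
SLC1A7, GRCh38 chr1:53142639-53142888, minus strand: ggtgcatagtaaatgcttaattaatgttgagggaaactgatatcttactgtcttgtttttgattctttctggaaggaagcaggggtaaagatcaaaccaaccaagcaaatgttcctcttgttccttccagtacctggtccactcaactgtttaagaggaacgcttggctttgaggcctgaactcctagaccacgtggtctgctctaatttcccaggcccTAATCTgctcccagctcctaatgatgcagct
GABRR3, GRCh38 chr3:98035316-98035565, minus strand: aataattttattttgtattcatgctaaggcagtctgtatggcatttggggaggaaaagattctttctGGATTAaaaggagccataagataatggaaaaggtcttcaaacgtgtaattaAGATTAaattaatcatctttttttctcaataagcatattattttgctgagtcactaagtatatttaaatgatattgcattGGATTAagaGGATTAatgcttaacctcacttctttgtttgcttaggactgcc
H3C15, GRCh38 chr1:149852358-149852607, plus strand: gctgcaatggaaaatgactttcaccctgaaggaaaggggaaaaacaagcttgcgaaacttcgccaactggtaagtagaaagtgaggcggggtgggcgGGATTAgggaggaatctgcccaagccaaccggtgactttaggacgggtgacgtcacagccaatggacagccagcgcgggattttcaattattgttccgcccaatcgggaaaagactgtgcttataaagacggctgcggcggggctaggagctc
TBR1, GRCh38 chr2:161416047-161416296, plus strand: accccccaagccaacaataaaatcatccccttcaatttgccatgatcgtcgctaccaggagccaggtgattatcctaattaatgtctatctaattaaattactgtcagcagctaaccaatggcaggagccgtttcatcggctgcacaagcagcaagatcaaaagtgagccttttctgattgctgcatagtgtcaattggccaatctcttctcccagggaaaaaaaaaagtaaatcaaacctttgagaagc

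Summits and motifs lay close to each other in several of these promoters. At CRX, whose product is the photoreceptor homeodomain factor, the window holds 2 copies of GGATTA, and the nearer one was centred 4.5 bp from the summit of a peak of 104 fragments with a 12.9-fold enrichment. At MAB21L1, a gene of eye development, the only match was centred 1.5 bp from a summit of 192 fragments and 20.8-fold enrichment. TMCC2, a transmembrane protein, had its match centred 1.5 bp from a summit of 197 fragments and 20.5-fold enrichment. This window belongs to a RefSeq start inside the gene, and the summit lay 29234 bp downstream of the TSS of the TMCC2 gene record. SLC1A7, a glutamate transporter, had its match centred 0.5 bp from a summit of 199 fragments and 20.1-fold enrichment. GABRR3, a subunit of the retinal type of GABA receptor, had 4 matches, and one was centred 2.5 bp from a summit of 244 fragments and 20.0-fold enrichment. GUCA1A, an activator of guanylate cyclase in photoreceptors, had 2 matches and a summit of 267 fragments (95% Poisson interval 236 to 301) at 101 bp before the TSS.

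At KCNV2, RPGRIP1 and EYS the matches were farther from the summit. KCNV2, a potassium channel subunit of photoreceptors, had 301 fragments at the summit and a 34.8-fold enrichment, with the printed match centred 51.5 bp away. RPGRIP1, a protein of the photoreceptor connecting cilium, had 260 fragments and a 32-fold enrichment, with its nearer match 55.5 bp away. EYS, a matrix protein of photoreceptors, had 295 fragments and a 21.8-fold enrichment, with its nearer match 56.5 bp away. At H3C15, a replication-dependent histone gene, the match was centred 46.5 bp from a summit of 240 fragments, while the window of TBR1 held neither set of letters although its summit had 196 fragments and a 24.2-fold enrichment. That says only that these letters are not in those 250 bases.

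Over all 33725 RefSeq windows, which run from 250 bp before to 50 bp after the start, 12.8% held TAATCC or TAATCT on either strand. Among the 322 windows with the summit of a dense-cluster peak the share was 20.8% (Wilson 95% interval 16.7% to 25.6%). It was 17.2% (16.2% to 18.2%) among 5516 windows with the summit of another peak, so the intervals of dense-cluster and other peaks overlapped. It was 11.9% among the 27887 windows with no summit. For TAATCC alone the shares were 12.4%, 10.8% and 5.41% in the same order. In 64 genes with both a dense-cluster summit and a motif in the window, the median distance between them was 15 bp, and it was at most 50 bp in 56. Both had to lie in the same short window, which limits the distance. It was not worked out for other peaks, so it says nothing particular to dense clusters.

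Most clusters were single peaks. These numbered 55965 (41.8% of peaks), while 550 clusters had 6 peaks, 148 had 10 or more and 9 had 20 or more. The most crowded held 37. The clusters just inside and just outside the rule overlapped in span and in summed height. Those with exactly 6 peaks had a median span of 13434 bp and a summed height of 499 fragments. The 1189 clusters with exactly 5 peaks had a median span of 10886 bp and a summed height of 390 fragments.

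**Figure D1:**
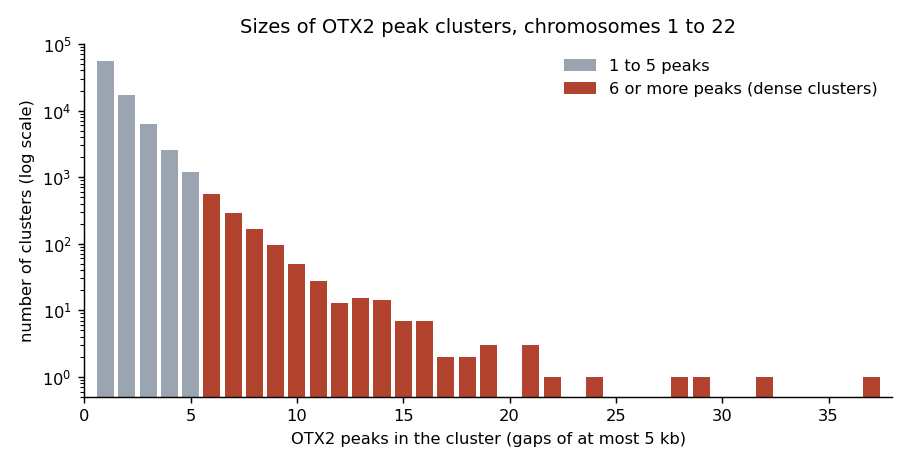
Number of clusters (log axis) against the number of OTX2 peaks per cluster on chromosomes 1 to 22. Grey bars are clusters of 1 to 5 peaks and red bars are dense clusters. The counts fall from 55965 single peaks to 1189 clusters of 5 and 550 of 6, with no step at the limit, and end at 1 cluster of 37.

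The typical dense cluster was a loose chain of mostly modest peaks. Its median span was 15809 bp (quartiles 12928 to 19663 bp, range 5950 to 79875 bp), of which peaks covered 27.2%. Heights are given as fragments, the deposited pileup at the summit divided by the 0.735 that each ChIP fragment adds. The summed height had a median of 582 fragments (range 173 to 3266), which is a summed pileup of 428. The tallest peak had a median of 197 fragments and made up 31.4% of the sum. That share was larger in smaller clusters, at 42.5% with 4 to 5 peaks and 62.4% with 2 to 3. In 52 dense clusters the tallest peak held more than all the others combined. It was the first or last peak in 30.2% of clusters, where equal chances for each place would give 28.3%.

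Member peaks were little taller than peaks elsewhere. Their median height was 58 fragments, against 53 outside dense clusters, and their median fold enrichment over the local input was 5.95, against 6.10. Leaving out the tallest of each cluster, which lowers the median by construction, it was 51 fragments. Peaks with no other peak within 5 kb had a median of 50, but none of them were left out, so the comparison is not like for like. Member peaks were longer, with a median of 508 bp against 437 bp, and 4.59% reached 1500 bp against 1.76%. The local input, worked out for each peak from its pileup and its enrichment and on the scale of the pileup, was also higher for members, at a median of 5.94 against 5.00. It reached 3 times its lowest value in 7.47% of members and 4.06% of other peaks, and its part in the clustering was not tested.

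Many member peaks lay close to the next. Gaps inside dense clusters ran from 236 to 4994 bp with a median of 1501 bp, and 16.5% of them were under 500 bp. When peaks less than 500 bp apart were counted as 1, 857 of the 1246 clusters still held 6 or more.

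**Figure D2:**
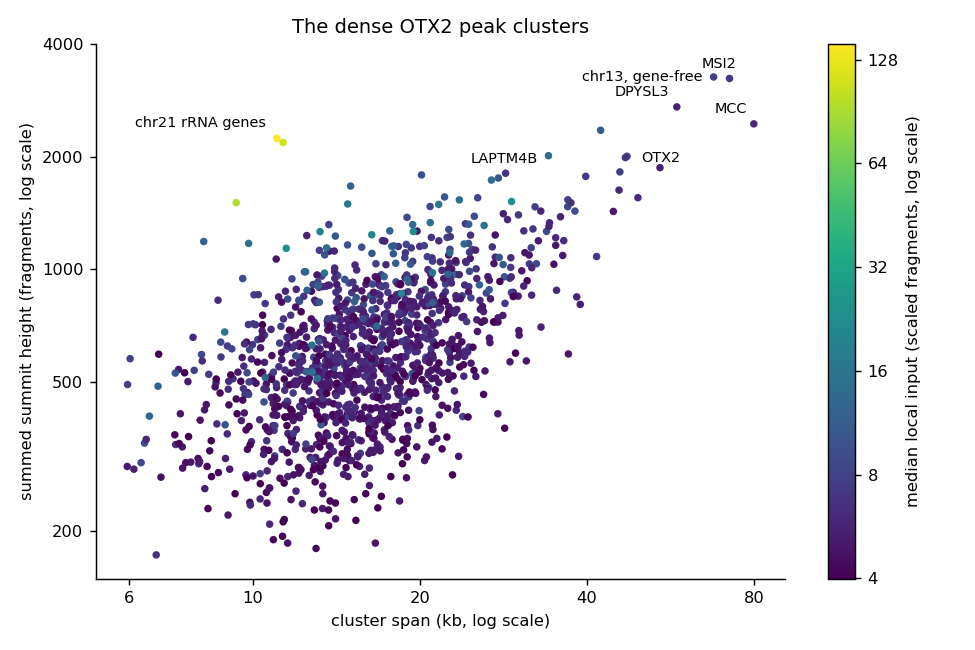
Each point is 1 of the 1246 dense clusters, with its span in kb (log axis) against its summed summit height in fragments (log axis), coloured by the median local input of its peaks (log scale). The MSI2, MCC, DPYSL3 and gene-free chr13 clusters sit at the upper right with a local input of 5.57 to 8.0, while the 3 clusters on chr21 ribosomal RNA genes are short, tall and have a local input of 93.0 to 142.

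Most dense clusters overlapped a gene. A protein-coding gene record overlapped 965 of them (77.4%, Wilson 95% interval 75% to 79.7%), and 547 (43.9%) lay whole inside a gene. The share overlapping a gene was 50.6% for single peaks, 58.2% for clusters of 2 to 3 peaks and 68.2% for clusters of 4 to 5. Median span rose too, from 414 bp for single peaks to 15809 bp for dense clusters, and longer stretches meet genes more readily. The share whole inside a gene did not rise, at 47.1%, 46.4% and 45.0% for the smaller classes in that order. A protein-coding TSS lay inside 411 dense clusters (33.0%, 30.4% to 35.6%), and 78 held more than 1. Longer stretches hold more start sites of any kind: per Mb of cluster span there were 24.0 TSS in dense clusters, against 29.6 in clusters of 4 to 5 peaks and 90.8 under single peaks. Per Mb covered by the peaks themselves there were 60.4 TSS for members and 84.7 for other peaks.

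Taken peak by peak, members lay in introns more often than other peaks did. Of the member summits, 59.2% lay in introns and 35.5% outside protein-coding genes, where 47.0% and 48.4% of other summits lay. Summits within 1 kb of a TSS made up 5.77% of members (5.32% to 6.26%) and 6.17% of other peaks (6.04% to 6.31%). At the far end, 107 dense clusters (8.59%) had no protein-coding gene within 100 kb.

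The most crowded cluster was in a gene desert. It held 37 peaks over 67.6 kb at chr13:70691408-70759015, with a summed height of 3266 fragments, the highest of all dense clusters. No protein-coding, lncRNA or RefSeq record overlapped it. The nearest protein-coding genes were KLHL1, an actin-binding protein of neurons, 583 kb away, and DACH1, a transcriptional regulator of eye and limb development, 679 kb away. Its tallest peak had 366 fragments (95% Poisson interval 329 to 405) and a 33.8-fold enrichment, and 18 of its 37 peaks were at least 5-fold enriched. A further dense cluster of 22 peaks and 1822 fragments lay in the same desert at chr13:70580879-70626726. With close peaks joined the 2 clusters still held 22 and 15 peaks.

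The next most crowded clusters lay inside genes. In MCC, a candidate suppressor of colorectal tumours, 32 peaks spread over 79.9 kb at chr5:113162307-113242181, the widest span of all, with 2448 fragments in sum. In MSI2, an RNA-binding protein of stem and progenitor cells, 29 peaks covered chr17:57507833-57580047. They began 252 kb downstream of the gene's TSS and ended 324 kb downstream, and the summed height was 3236 fragments with a tallest peak of 292. DPYSL3, which acts on the cytoskeleton of growing axons, held 24 peaks and 2717 fragments at chr5:147427482-147485535, and 9 of its peaks were at least 10-fold enriched. NFIB, a transcription factor of brain and lung development, held 21 peaks with a tallest of 266 fragments.

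In 2 of the crowded clusters the peaks ran across the start sites of a pair of divergent genes. The 28 peaks at chr4:86577832-86624740 spanned the TSS of MAPK10, a stress-activated kinase of neurons, and of PTPN13, a tyrosine phosphatase, and peaks covered 57.9% of that span. The 21 peaks at chr12:54249638-54289431 spanned the TSS of CBX5, a heterochromatin protein, and HNRNPA1, a splicing factor. The tallest peak there, with 316 fragments and a 25.9-fold enrichment, lay in an intron of CBX5 20315 bp from its TSS. In both clusters the tallest peak was thus away from the start sites. The MSI2, DPYSL3 and NFIB clusters hold no TSS of a protein-coding gene record, so their tallest peaks could not lie at one.

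OTX2 itself had one of the 3 clusters with 21 peaks, at chr14:56774333-56821565. The peaks spread over 47.2 kb, from 4115 bp upstream of the TSS to 42090 bp downstream of it, with 2006 fragments in sum. The peak nearest the TSS was small, with 50 fragments and a 3.95-fold enrichment. The tallest, with 234 fragments (95% Poisson interval 205 to 266) and a 22.3-fold enrichment, lay beyond the 3′ end of the gene, 37928 bp downstream of the TSS. The peaks with 182, 182 and 180 fragments lay 42090, 3641 and 21046 bp downstream, so the tall peaks were found in the first part of the gene and beyond its end. The local input in this cluster had a median of 8.56, against 5.00 over peaks on chromosome 14.

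**Figure D3:**
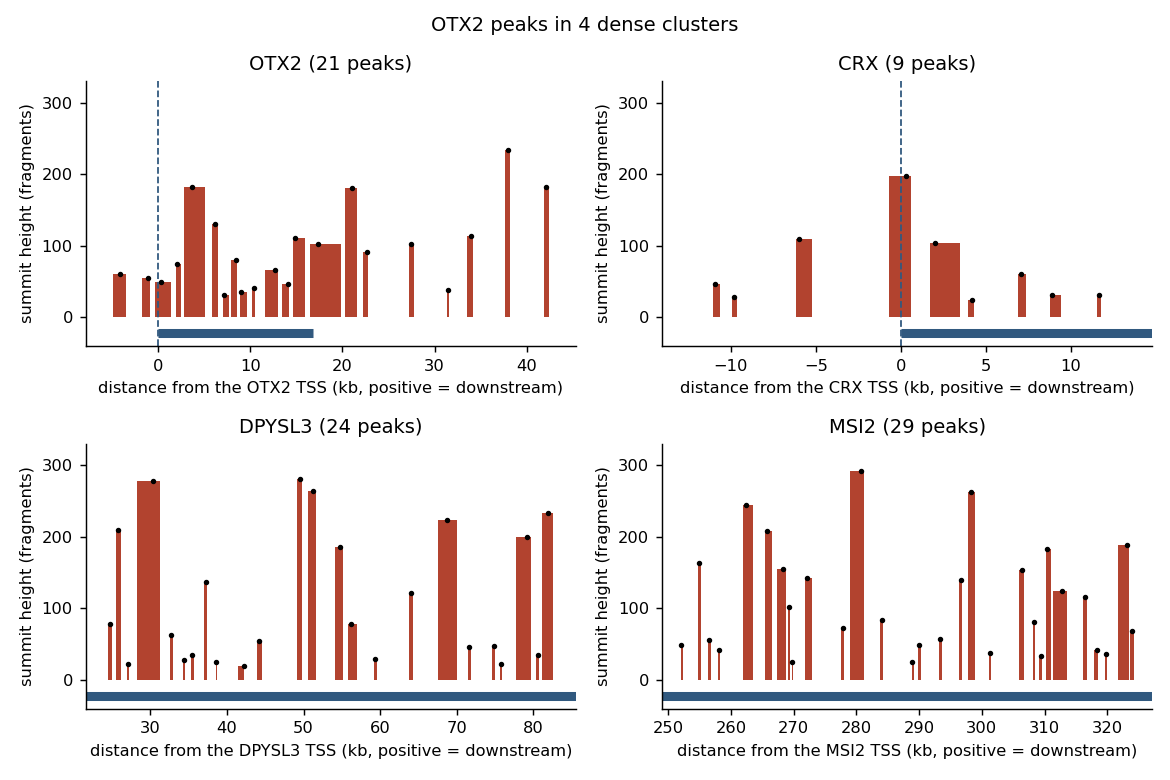
Peaks of 4 dense clusters, drawn as red bars as wide as the peak and as high as its summit in fragments, with a black point at the summit, against distance from the TSS in kb. The blue bar is the gene and the dashed line its TSS; in the OTX2 cluster the tallest peak (234 fragments) lies beyond the gene, in the CRX cluster (197 fragments) it lies at the TSS, and in DPYSL3 and MSI2 all peaks lie inside the gene.

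Some tall clusters stood on DNA with a high input signal. The 3 clusters with the highest summed height per kb were on chr21 at the ribosomal RNA genes RNA45SN2 and RNA45SN3 and at rRNA pseudogenes. Their median fold enrichments were 1.71, 2.06 and 2.21, their local inputs 142, 110 and 93.0, and no peak reached a fold enrichment of 5. ENPP2, which makes the signalling lipid lysophosphatidic acid, followed with 6 peaks in 8.17 kb, then CPQ, a secreted peptidase, with 7 in 9.84 kb. These lie on chromosome 8, as does the cluster of LAPTM4B, a lysosomal membrane protein, with 14 peaks and 2013 fragments. Local input over all peaks of chromosome 8 had a median of 8.03, the highest of the autosomes.

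The histone cluster at chr1:149825755-149868086 also had a high input. Its 19 peaks and 2353 fragments covered the TSS of H3C14, H3C15, H4C14, H4C15 and H2AC19, and its median local input was 11.0. These genes have near-identical copies, and the peaks mirrored each other: 240 fragments at H3C15 and 221 at H3C14, 104 and 103 bp before the TSS, and 217 and 213 at the 2 H4 genes, both 385 bp before the TSS. Reads of such copies cannot be told apart where the sequence is the same. AMBRA1, a regulator of autophagy, had the fifth widest cluster, with 18 peaks and a tallest of 282 fragments and 38.1-fold enrichment.

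Of 18978 protein-coding genes on the autosomes, 1018 (5.36%) had a record that overlapped a dense cluster, and these are called touched below. Touched genes were long, with a median of 102331 bp against 26474 bp for the others. The share was 2.24% for genes under 10 kb, 3.12% for 10 to 50 kb, 7.72% for 50 to 200 kb and 19.6% for longer ones. A TSS lay inside a dense cluster for 509 genes (2.68%), and under a member peak for 362 (1.91%). Counting the start of any annotated transcript, 698 genes (3.68%) had one inside.

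The genes with the most member peaks were MCC with 58 in 5 clusters, and NFIB with 50 in 3. LRBA, which acts in vesicle traffic, had 45, and NBEA, a related protein of synaptic membrane traffic, had 34. PSMD14, a deubiquitinase of the proteasome, had 32 member peaks among 35 peaks in all, within 103.3 kb. MFAP3, a microfibril-associated protein, and NSMCE2, a SUMO ligase of DNA repair, also had 32. DPYD, which breaks down pyrimidines, had 31 of 94, MSI2 29 of 63, and SLIT3, a secreted axon guidance ligand, 28 of 67. The peaks of PSMD14 and MFAP3 were thus mostly in dense clusters, at 91.4% and 78.0%, while those of DPYD were mostly not, at 33.0%.

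Photoreceptor and OTX network genes were touched in 6 of 25 cases (24.0%, Wilson 95% interval 11.5% to 43.4%), where genes of the same lengths were touched at a rate of 4.60%. The 6 were OTX2, CRX, NRL, IMPG2, GUCA1A and GNGT1, and 4 of them (16%) had the TSS inside a dense cluster, beside 2.68% of all genes. CRX had 9 peaks over 22.9 kb, and the tallest, with 197 fragments, lay 294 bp downstream of the TSS of the gene record, which lies upstream of the RefSeq start used for the sequence above. The cluster of 9 peaks also holds the TSS of TPRX1. A second dense cluster of 6 peaks, with a tallest of 322 fragments 29146 bp downstream of the CRX TSS, overlapped the end of CRX. NRL, a leucine zipper factor of rods, had 7 of its 8 peaks in a dense cluster. At IMPG2, a matrix protein of photoreceptors, the tallest peak had 278 fragments 5328 bp upstream and a peak of 157 fragments lay at the TSS. This cluster also overlaps SENP7, and the peak of 278 fragments lay in an exon of SENP7. Of the 25 genes 1 was touched with gaps of at most 2.5 kb, 3 with 8 or more peaks required and 2 with peaks of at least 5-fold enrichment alone.

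Neural SOX and proneural factors were touched in 8 of 33 cases (24.2%, 12.8% to 41.0%), against 4.39% for their lengths. The TSS was inside for 7, where the rate for their lengths would give 0.776 genes. These genes are short, and touched genes under 10 kb mostly have the TSS inside, at 99 of 106 over all genes. With gaps of at most 2.5 kb, with 8 or more peaks, or with peaks of at least 5-fold enrichment alone, 1 of the 33 was touched. NEUROG1, a proneural factor, had 6 peaks with 900 fragments in sum. Its tallest peak, of 380 fragments and 31.2-fold enrichment, lay 9204 bp upstream, and a peak of 153 fragments lay 251 bp upstream. This cluster also overlaps SLC25A48, and the peak of 380 fragments lay in an intron of that gene. NEUROG2, its relative, had a tallest peak of 245 fragments 5525 bp upstream and 23 fragments at the peak nearest the TSS. HES6, a regulator of neurogenesis, had 9 peaks of 38 to 148 fragments, 8 of them at least 5-fold enriched. Its cluster also overlaps PER2, and the peak of 148 fragments lay in an intron of PER2.

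The other members of that list had tallest peaks of at most 166 fragments where the TSS was inside. HES1, a Notch target that holds back neurogenesis, had a tallest peak of 105 fragments, and ID3, an inhibitor of basic helix-loop-helix factors, one of 119. ID1, of the same family, had peaks of 25 to 63 fragments only. SOX12, a factor of neural progenitors, had a tallest of 166 fragments 9029 bp upstream. SOX6 was touched away from the TSS of its gene record, but the start of another annotated SOX6 transcript lay inside the cluster. The summits nearest the TSS of HES1, HES6, ID1 and ID3 had 53, 38, 54 and 58 fragments, where the median of member peaks was 58.

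Regulators of Group 3 and Group 4 medulloblastoma were touched in 4 of 28 cases (14.3%, 5.70% to 31.5%), against 5.23% for their lengths. TBR1, a factor of glutamatergic neurons, had 15 peaks over 25.7 kb, which ran on into SLC4A10, a bicarbonate transporter, and after joining of close peaks 6 were left. Its tallest peak lay 168 bp upstream of the TSS. NEUROD1, a factor of neuronal differentiation, had 6 peaks with 83 fragments next to the TSS and 248 fragments 11550 bp downstream. This cluster also holds the TSS of CERKL, which was the nearest TSS to the peak of 248 fragments, at 11388 bp. SNCAIP was touched away from its TSS. Of the midbrain, hindbrain and rhombic lip genes 3 of 32 were touched (9.38%, 3.24% to 24.2%), against 6.25%, among them PBX3 and WLS. WLS, a carrier of Wnt ligands, had a peak of 297 fragments and 40.8-fold enrichment 5752 bp upstream, while its other 5 peaks had 18 to 41 fragments. PBX3, a homeodomain cofactor, had a tallest peak of 169 fragments.

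Cell cycle regulators were touched in 7 of 50 cases (14%, 6.95% to 26.2%), against 3.82%. CDK4, a kinase of the entry into S phase, lay in a cluster of 6 peaks that also spanned METTL1, CYP27B1, EEF1AKMT3 and MARCHF9, with a tallest of 254 fragments. CDKN2C, an inhibitor of that kinase, had a tallest of 70 fragments, and E2F8, a repressor of the E2F family, of 127. The CDKN2C cluster also holds the TSS of FAF1, and its peak of 55 fragments lay 79 bp upstream of that TSS. E2F5 and MCM4, a subunit of the replicative helicase, had 175 and 176 fragments on chromosome 8, with fold enrichments of 5.89 and 21.7. The MCM4 cluster also holds the TSS of PRKDC, and its peak of 176 fragments lay in an intron of PRKDC. CDKN1B and CCND2 were touched away from the TSS of the gene record. Of the 50 genes 3 were touched with gaps of at most 2.5 kb, 1 with 8 or more peaks required and 0 with peaks of at least 5-fold enrichment alone.

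Axon guidance ligands and receptors were touched in 8 of 69 cases (11.6%, 5.99% to 21.2%), near the 9.55% of genes of their lengths. Only UNC5C had the TSS of its gene record inside. Counting the start of any annotated transcript, 4 had one inside: UNC5C, SEMA3A, SEMA6D and ROBO1. By that count the share was 3.68% over all genes, 5.25% for genes of 50 to 200 kb and 8.45% for longer ones. UNC5C, a netrin receptor, had 12 peaks with a tallest of 334 fragments and 29.1-fold enrichment 3460 bp upstream. SLIT3 had 4 dense clusters, SEMA6D 3, and SEMA3A, PLXNA2, EFNA5, SLIT2 and ROBO1 had 1 each. Synaptic adhesion and scaffold genes, many of them very long, were touched in 10 of 43 cases (23.3%, 13.2% to 37.7%), against 15.6% for their lengths. The TSS was inside for NLGN1 and LRRTM2, both organisers of synapses, with tallest peaks of 123 and 204 fragments. The LRRTM2 cluster also overlaps CTNNA1.

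The lists meant as a contrast were touched as well. Of 74 genes of cytosolic ribosomal proteins 5 were touched (6.76%, 2.92% to 14.9%), against 2.49%. All 5 had the TSS inside, where the rate for their lengths would give 1.59 genes. These genes have many processed copies in the genome, and the reads of copies were not told apart here. RPL7, RPL17, RPS15A and RPS24 had 55, 61, 32 and 39 fragments at the summit nearest the TSS, and their tallest peaks ranged from 61 to 356 fragments. The peak of 356 fragments, in the RPL7 cluster, lay 712 bp upstream of the TSS of RDH10. Of 18 muscle regulators only MEF2D was touched (5.56%, 0.988% to 25.8%), against 4.51%. The 52 touched genes over the 9 lists are counts from 1 library and no list was tested. The stricter settings lower the background too: 1.44% of all genes were touched with gaps of at most 2.5 kb, 1.98% with 8 or more peaks and 0.848% with peaks of at least 5-fold enrichment alone. In that order the Group 3 and Group 4 list had 2, 2 and 1 touched genes, the hindbrain list 1, 0 and 0, and the axon guidance list 5, 4 and 4. The synaptic list had 3, 0 and 0, the ribosomal list 1, 1 and 0, and the muscle list 0 in each. With peaks under 500 bp apart joined first, where 3.76% of all genes were touched, the photoreceptor, proneural and cell cycle lists had 4, 7 and 4.

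**Figure D4:**
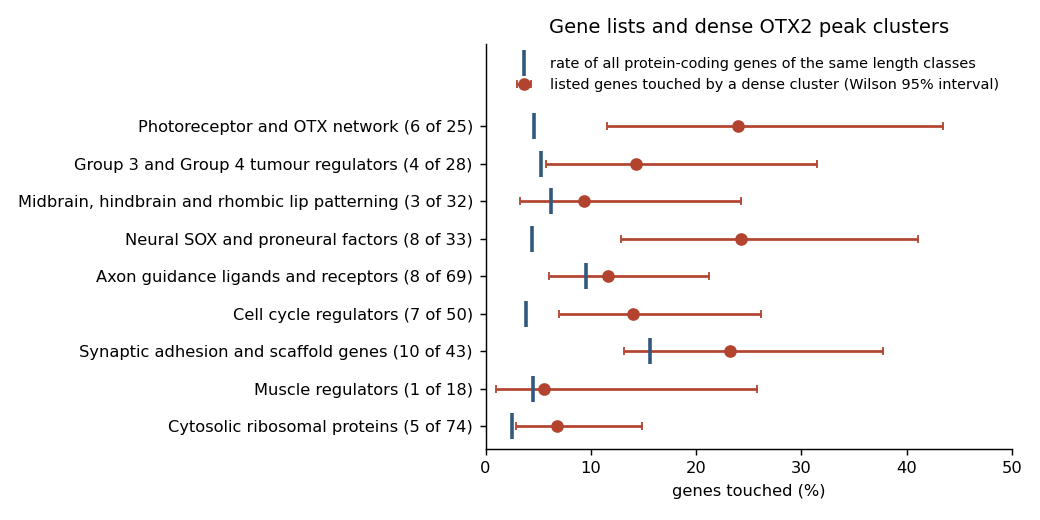
Share of listed genes touched by a dense cluster, in percent, with Wilson 95% intervals (red), beside the rate at which protein-coding genes in general were touched in those length classes (blue ticks). The photoreceptor (6 of 25) and proneural (8 of 33) lists sit at 24.0% and 24.2% with ticks at 4.60% and 4.39%, while the axon guidance list (8 of 69) is near its tick. The order of these lists changed under some stricter settings, and no rate by length was worked out for any of those settings. With gaps of at most 2.5 kb these lists had 1 of 25, 1 of 33 and 5 of 69 genes touched. Of the same 25, 33 and 69 genes, 3, 1 and 4 were touched with 8 or more peaks. With peaks of at least 5-fold enrichment 2, 1 and 4 were touched, and with a −log10 q of at least 5 it was 5, 6 and 7.

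Dense clusters were spread unevenly over the chromosomes. The share of peaks in dense clusters was highest on chromosome 17 (9.62%) and chromosome 1 (9.50%, 166 clusters), and lowest on chromosome 7 (2.01%, 12 clusters). Peak number and local input differed as well: chromosome 7 had 27.3 peaks per Mb and a median local input of 3.99, chromosome 17 had 55.5 and 6.67, and chromosome 1 had 54.9 and 6.0. The order was not the same throughout, since chromosome 8, with the highest input, had a share of 8.03%, below the 8.79% of chromosome 14 at an input of 5.00, and chromosome 12, with the most peaks per Mb (56.3), had 6.86%. The number of chromosome copies in the line was not measured here, and the part of input and peak number in these shares was not tested.

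**Figure D5:**
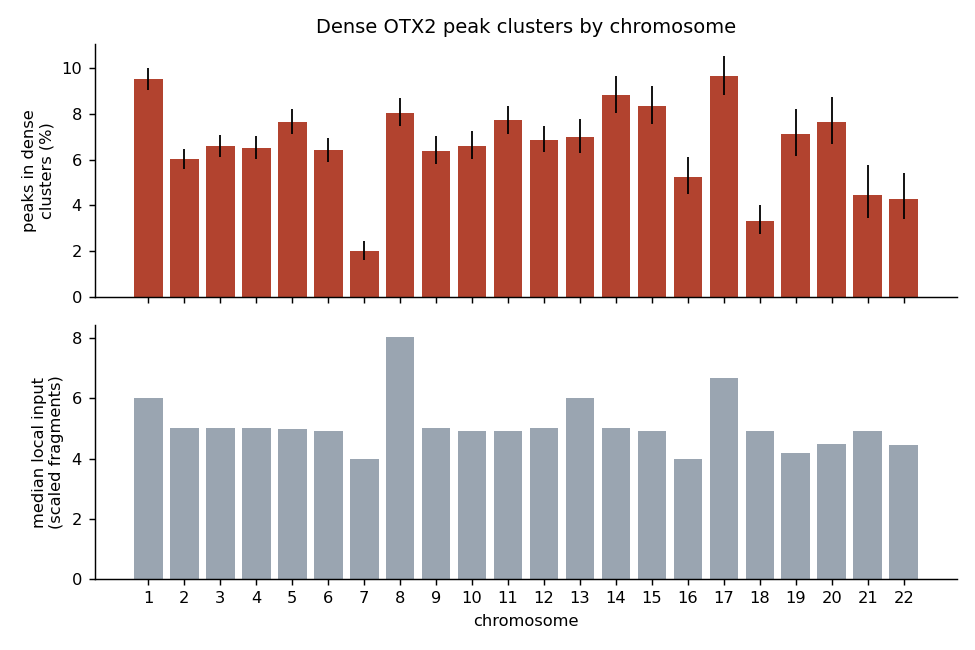
Upper panel, percent of OTX2 peaks in dense clusters on each autosome with Wilson 95% intervals; lower panel, median local input of all peaks there in scaled fragments. Chromosome 7 has the lowest share (2.01%) and the lowest input (3.99), chromosomes 1 and 17 have the highest shares, and chromosome 8 the highest input (8.03).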

How the data were processed

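The data were 1 OTX2 ChIP library and 1 input library. The submitters' processing notes name GRCh38, Bowtie2 2.2.4 and MACS2 2.1.0.20140616, the header of the peak list gives a q-value cutoff of 0.05 and 1 fragment kept per duplicate, and the study states masking of blacklisted regions. The deposited pileup is a scaled signal at the summit, the deposited fold enrichment is a ratio to the local input, and the deposited −log10 columns hold the p-value and q-value of each peak. Local input was taken as (pileup + 1) / fold enrichment − 1, and fragments as pileup / 0.735, at most 0.0068 from a whole number. Of 137412 peaks, 3427 lay outside chromosomes 1 to 22.

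GRCh38 positions recorded in GENCODE release 44 gave 18978 protein-coding and 18229 lncRNA genes, and no coordinate was converted. Each gene record was taken to start (TSS) at its 5′ end. Promoter sequences came from RefSeq, GRCh38.p14. Some genes covered by the naming rule are not reported here. Motifs at other summits were not analysed here.

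Clusters were named by rule: the 10 with the most peaks, 10 by summed height, 5 by span, 5 by summed height per kb, the 10 genes with the most member peaks, and listed genes with a TSS inside. CDKN1B has a cluster tied in peak number with the tenth. The members and lists were chosen with earlier results of these data known. Shares have Wilson 95% intervals and heights exact Poisson intervals. No test between conditions was possible. Clustering was checked on simulated peaks. The alternatives were other gaps, sizes, thresholds and gene definitions. Scripts ran under Python 3.11.15 with scipy 1.17.1, numpy 2.4.6 and pandas 2.3.3, and plots were made with matplotlib 3.10.9.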

Additional observations from a re-analysis of the deposited data

Results flagged for a closer look

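Peaks outside chromosomes 1 to 22 were not part of the clusters above, and some of them were as crowded. By the same rule chromosome X had 9 dense clusters, with 56 of its 3111 peaks (1.80%), at most 7 peaks in a cluster and median local inputs of 3.99 to 4.50. Unplaced sequences had 3 dense clusters, with 18 of their 82 peaks (22%), and median local inputs of 6.01 to 113.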

How the results depend on the processing

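The gap and size limits set how many clusters there were. With gaps of at most 2.5 kb there were 330 clusters with 2402 peaks, a median span of 10595 bp, a TSS in 36.4% and 1.44% of genes touched (17 listed genes, against 52). With 10 kb there were 3634 with 30530 peaks, 27674.5 bp, 15.6% of genes and 104 listed genes. With 5 or more peaks there were 2435 with 15348 peaks, 13051 bp, a TSS in 29.1% and 9.23% of genes. With 8 or more there were 408 with 4087 peaks, 21112 bp, a TSS in 41.2%, 1.98% of genes and 12 listed genes. Keeping peaks with a −log10 q of at least 5 left 824 clusters with 5982 peaks, 3.56% of genes and 31 listed genes. Keeping those with a fold enrichment of at least 5 left 194 with 1300 peaks, 16794 bp, a TSS in 25.8%, 0.848% of genes and 8 listed genes. Gaps from summit to summit gave a span of 14226 bp and 4.30% of genes, and without the peaks of high local input it was 4.55%. Any transcript TSS lay in 48.9% of clusters and touched 3.68% of genes, and a member peak overlapped a TSS in 24.6%. Joining peaks under 500 bp apart first, which was chosen after seeing the data like the use of RefSeq gene records, gave 6244 peaks, 17752 bp and 3.76%. The cause of these changes was not tested beyond what each limit admits. No paired analysis was possible because neither library had a replicate, and so none could be left out.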

Other observations

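Dense clusters were themselves found in groups. Of the 1246, 254 (20.4%) lay within 50 kb of another, while the median distance to the nearest was 301 kb. There were 25 runs of 3 or more dense clusters with at most 50 kb between them, holding 86 clusters. The run with the most peaks was at chr2:161223193-161438955, where 5 clusters with 69 peaks and 4286 fragments covered or flanked PSMD14, TBR1, TANK, an adaptor of innate immune signalling, and SLC4A10.

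The other runs lay at genes of mixed roles and in gene-free stretches. At LHX8, a LIM homeodomain factor of the forebrain, 3 clusters held 28 peaks, and at NR2F2, a nuclear receptor of vessel and brain development, 3 clusters held 21. At NSMCE2 4 clusters held 32 peaks, and at GLUL, which makes glutamine, 3 clusters held 32. At MFAP3 and GALNT10, which starts mucin-type glycosylation, 6 clusters held 45 peaks. At chr3:164330823-164467506, 3 clusters with 34 peaks and 3903 fragments overlapped no protein-coding gene. These runs were picked out after their values were seen and were not tested.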
